A study of Mus musculus with 11 samples.

Results

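The S100 genes encode small calcium-binding proteins, and 8 of them were examined: S100a1, S100a4, S100a6, S100a10, S100a11, S100a13, S100a16 and S100b. They were taken by symbol from a deposited table of 53453 gene rows. The list was selected on their TPM in this table, with the difference between the groups below already known, so those differences are given as a description and carry no p-value. The libraries came from primary neurospheres, free-floating spheres of neural stem and progenitor cells, grown from embryonic mouse brain at E15.5. In the 6 control libraries the labelled treatment was none, and in the other 5 it was Klf5 overexpression, named Klf5OE here. The labels do not say how Klf5 was overexpressed, in which cells, or in which strain, and they count 6 control and 5 overexpression embryos.

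Most S100 proteins form dimers, and each subunit carries a pair of EF-hand motifs, helix-loop-helix folds that can hold calcium. Calcium binding exposes a surface that grips a target protein, such as an annexin, a myosin heavy chain or a receptor. S100A10 is the exception: its loops have lost calcium binding, and it binds annexin A2 without calcium. In the brain S100b is known for astrocytes and part of the oligodendrocyte lineage, while several S100A genes are known from epithelia, fibroblasts and reactive glia.

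In the mouse genome (GRCm38, GENCODE M21 gene models, starts counted from 1) 7 of the 8 genes lie on chromosome 3. S100a1 (90511034 to 90514392, minus strand), S100a13 (90514435 to 90524581), S100a16 (90537254 to 90543151), S100a4 (90603771 to 90606045) and S100a6 (90612882 to 90624181) sit within 113 kb. S100a11 (93520488 to 93526287) and S100a10 (93555080 to 93564643) lie 2.9 Mb further on, and S100b is on chromosome 10 (76253853 to 76261159). All but S100a1 are on the plus strand. S100a1 and S100a13 are transcribed away from each other, and 42 bases separate their gene models.

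The stretches just before 3 of the genes are shown because the transcription factor that was overexpressed binds short promoter motifs. RefSeq promoter windows (GRCm38.p6) were matched for 7 of the 8 genes, all but S100a10, and cut to the 250 bases before the start. Capitals mark the letters CACCC or the reverse, GGGTG, which form the core of sites bound by Kruppel-like factors. S100b and S100a4 are the higher members with a window, and the S100a13 window covers the stretch shared with S100a1.
S100b, chr10:76253586-76253835, plus strand: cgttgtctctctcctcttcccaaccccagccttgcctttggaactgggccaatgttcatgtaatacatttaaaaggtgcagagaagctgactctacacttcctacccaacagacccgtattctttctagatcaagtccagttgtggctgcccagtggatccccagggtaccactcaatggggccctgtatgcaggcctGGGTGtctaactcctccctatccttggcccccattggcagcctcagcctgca
S100a4, chr3:90603520-90603769, plus strand: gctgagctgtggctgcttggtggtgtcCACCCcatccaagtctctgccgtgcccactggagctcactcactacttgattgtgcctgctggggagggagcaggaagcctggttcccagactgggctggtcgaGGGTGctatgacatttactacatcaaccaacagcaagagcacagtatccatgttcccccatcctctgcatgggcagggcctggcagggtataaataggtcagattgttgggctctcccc
S100a13, chr3:90514185-90514434, plus strand: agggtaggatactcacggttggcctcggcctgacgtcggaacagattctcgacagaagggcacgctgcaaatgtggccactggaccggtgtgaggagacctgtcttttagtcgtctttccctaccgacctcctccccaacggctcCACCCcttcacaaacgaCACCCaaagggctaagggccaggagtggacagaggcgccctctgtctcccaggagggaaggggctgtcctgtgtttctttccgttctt

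The S100b window held 1 such match, starting 52 bases before the RefSeq start. Positions of matches are counted from that start, which for S100b lies ahead of the GENCODE gene start given above. S100a4 and S100a13 held 2 matches each, and the S100a1 window held 3. The S100a1 match at 21 bases and the S100a13 match at 88 bases are the same site, read on opposite strands. S100a16 had 2 RefSeq windows, with 3 and 2 matches. No match lay in the S100a6 or S100a11 windows. Over 32851 mouse windows of the same length, 52.0% held at least 1 match, with a median of 1. The GC box letters CCGCCC or GGGCGG, a related site class, occurred 3 times in S100a11 and once in 1 of the S100a16 windows, against 32.7% of all windows with at least 1. AP-1 letters TGANTCA stood in S100a11, with 2 matches, and in 1 of the S100a16 windows, against 6.75% of all windows. These are letter matches only; motif searches covered both strands.

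Klf5, the overexpressed zinc finger transcription factor, separated the groups as labelled. It stood at 53.6 to 93.0 TPM in the 5 Klf5OE libraries and at 0.371 to 1.29 TPM in the 6 controls. TPM counts transcripts per 1000000 and is scaled for transcript length and library total, so levels can be set side by side between genes. A two-sided exact permutation test over all 462 assignments gave p = 0.00216, the smallest it can give. Summed over all rows, TPM came to 814208 to 846780 in controls and 730832 to 821967 in Klf5OE. These sums fall short of 1000000, and the main limma fit below did not rescale them. Rows that resemble ribosomal RNA took 9.90 to 17.6% and 6.09 to 15.4% of these sums. Sequencing depth cannot be read from TPM and is unknown.

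The 7 neural precursor markers were all tested and summed to 4479 to 7580 TPM in controls and 3521 to 5498 TPM in Klf5OE. Fabp7 was the largest part of the control sums, at 2477 to 5405 TPM, and had 1418 to 2664 TPM in Klf5OE. Nes had 289 to 398 and 244 to 467 TPM, so the sums do not speak for each marker. Sox2, a transcription factor of neural stem cells, stood at 317 to 445 TPM in controls and 287 to 411 TPM in Klf5OE. Vim, the intermediate filament vimentin, was called higher, at 980 to 1157 and 1235 to 1910 TPM, and the RNA-binding protein gene Msi1 lower, at 24.4 to 31.4 and 12.1 to 26.2 TPM. Over all tested genes, in the limma fit described below, 2.29% were called higher and 1.43% lower. Pax6, a transcription factor of cortical precursors, was low, at 5.72 to 9.96 and 5.71 to 12.1 TPM. The part of these shifts in the S100 differences was not tested. The 8 S100 genes were the only ones of 17 S100 rows to pass the filter used for testing, which asked for at least 1 TPM in at least 5 libraries. Just inside it was S100a6, with 5 libraries at 1 TPM or more. The other 9 had none, and their highest value was 0.988 TPM, for S100a2 in Klf5OE library 3. S100a5, S100a8, S100a9, S100g and S100z were listed at 0 in all 11 libraries. S100a8 and S100a9 form calprotectin, the abundant S100 complex of neutrophils. S100a3 had 0 to 0.699 TPM in controls and 0 to 0.297 TPM in Klf5OE. S100a2 and S100a14 were above 0 in 2 and 3 libraries, and S100a7a in 1 library.

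In control neurospheres 3 of the S100 genes were well above the rest. S100a10 was the most abundant, with a lowest value of 86.4, a median of 97.2 and a highest value of 126 TPM, and lay above S100a16 in 6 of 6 libraries. S100a16 followed at 54.7 to 76.0 TPM, and S100a11 at 35.2 to 42.9 TPM. The ranges of these 3 genes did not overlap, and S100a11 lay clear of S100a13, at 5.93 to 13.8 TPM. S100a13, S100a1 and S100a4 formed a middle group whose neighbouring ranges overlapped. S100a6 and S100b were lowest, and their ranges overlapped too. Among 13549 tested genes, the control mean of S100a10 stood at the 92nd percentile and that of S100b at the 2nd.

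**Figure D1:**
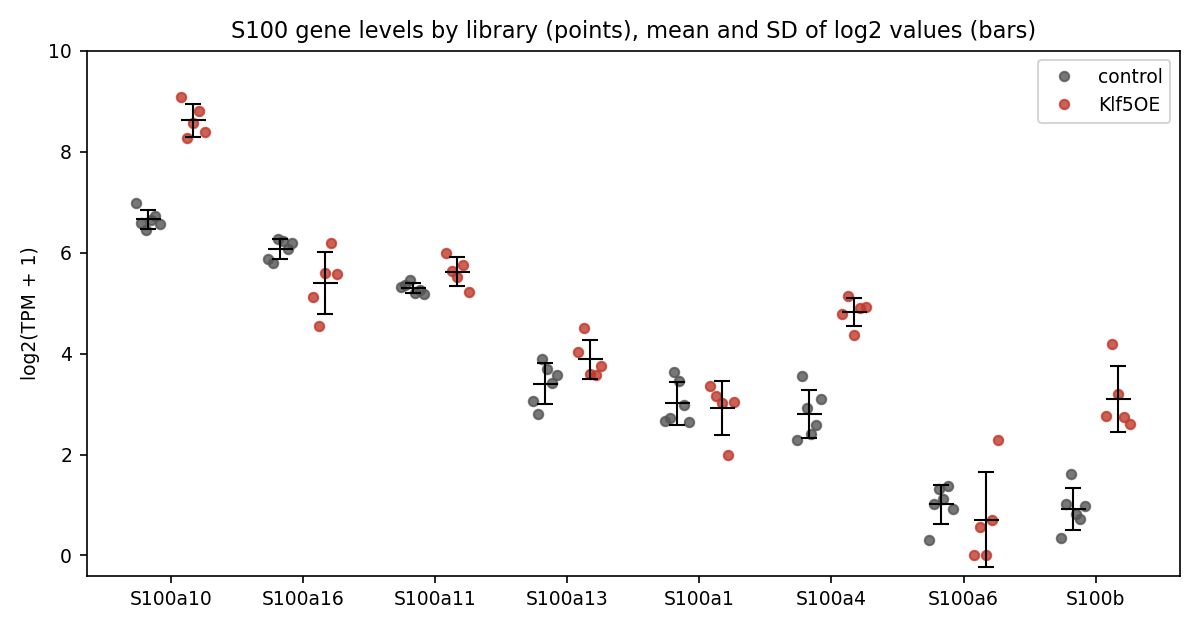
Level of each S100 gene in each library on a log2(TPM + 1) axis, ordered by control mean. Points are libraries, grey for 6 controls and red for 5 Klf5OE libraries, and bars are the mean and SD of the log2 values. S100a10, S100a4 and S100b show no overlap between groups, and the other 5 genes do.

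With Klf5 overexpression 3 of the 8 genes were higher and 5 were not called. The 3 were S100a10, S100a4 and S100b, at log2 fold changes of 1.96 to 2.19 in a limma fit over all genes. In that fit 3.72% of tested genes were called in either direction and 2.29% were called higher and 1.43% lower, at a Benjamini-Hochberg adjusted p under 0.05. The same 3 had every Klf5OE library above every control, as did 1.99% of tested genes, and none had every Klf5OE library below every control, as 1.31% of tested genes did. The choice of the members used this comparison, so nothing is read from these counts. The median log2 fold change was 0.4 over the 8 genes and -0.04 over all tested genes. In bulk RNA, more cells that express a gene and more RNA per cell cannot be told apart.

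S100a10, the annexin A2 partner also called p11, was the most abundant member in both groups. The Klf5OE libraries 1 to 5 had 543, 308, 378, 448 and 334 TPM, while the controls ran from 86.4 over a median of 97.2 to 126 TPM. The lowest Klf5OE library was above the highest control, and library 1 was the highest. The means were 402 ± 94.9 TPM (SD, n = 5) and 101 ± 13.8 TPM (SD, n = 6), a 3.98-fold ratio. On the log2(TPM + 1) scale the difference was 1.96 ± 0.15 (SE). With Klf5OE the mean of S100a10 reached the 99th percentile of tested genes.

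S100a4 encodes a protein, also known as metastasin or fibroblast-specific protein, that binds non-muscle myosin IIA. Klf5OE libraries 1 to 5 had 26.5, 34.2, 19.7, 29.0 and 29.4 TPM. Controls lay between 3.89 and 10.7 TPM, with a median of 5.78 TPM. The groups did not overlap, and library 3 was the lowest of the Klf5OE libraries. The ratio of means was 4.37, and the log2 difference was 2.02 ± 0.22 (SE). Another protein-coding gene model, Gm42674, overlaps S100a4 on the same strand and shares 302 of its 584 exonic bases. Gm42674 had 27.1, 36.1, 19.8, 28.7 and 28.9 TPM in Klf5OE and 2.45 to 9.68 TPM in controls, a ratio of 4.18. The 2 rows tracked each other, at 0.985 to 1.06 TPM of Gm42674 per TPM of S100a4 in Klf5OE and 0.631 to 1.28 in controls. The labels do not say how reads in the shared exons were assigned, so the S100a4 level is uncertain.

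S100b, the glial member that is released by astrocytes and can signal through the receptor RAGE, had the largest log2 difference of the 8. It was near 1 TPM in controls, with a lowest value of 0.271, a median of 0.864 and a highest value of 2.04 TPM. In Klf5OE libraries 1 to 5 it had 5.79, 17.3, 8.20, 5.73 and 5.06 TPM. Library 2 stood well above the other Klf5OE libraries, and all 5 were above the highest control. The ratio of means was 8.81, or 6.48 without Klf5OE library 2, and the log2 difference was 2.19 ± 0.30 (SE). Of the 6 controls 2 reached 1 TPM, so S100b entered the fit through the Klf5OE libraries and had to differ. Its gene model overlaps that of Dip2a on the opposite strand, with 0 exonic bases shared. Dip2a had 15.1 ± 1.89 TPM (SD, n = 6) in controls and 14.9 ± 3.25 TPM (SD, n = 5) in Klf5OE, and did not pass the limma test (adjusted p = 0.98).

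S100a16, a widely expressed member, had the lowest log2 difference of the 8 at a pseudocount of 1, though at 0.1 S100a6 was lower. Klf5OE libraries 1 to 5 had 34.0, 22.3, 47.3, 71.6 and 46.4 TPM, against 54.7 to 76.0 TPM in controls. Libraries 1, 2, 3 and 5 were below every control, and library 4 was inside the control range. The log2 difference was -0.67 ± 0.22 (SE) and S100a16 was not called. Without Klf5OE library 4 the difference was -0.86 and it was called.

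S100a11, a partner of annexin A1 and of several other annexins, varied least among the controls. They lay between 35.2 and 42.9 TPM, a coefficient of variation of 7.42%. Klf5OE libraries 1 to 5 had 62.4, 48.8, 44.8, 52.7 and 36.5 TPM. Libraries 1 to 4 were above every control, and library 5 was inside the control range. The log2 difference was 0.33 ± 0.13 (SE) and was not called. S100a11 and S100a10 are neighbours, 28792 bases apart. S100a10 stood at 2.02 to 3.22 times S100a11 in controls and at 6.30 to 9.15 times S100a11 in Klf5OE.

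S100a13 takes part in the release of FGF1 from cells without a signal peptide. It had 15.3, 21.6, 11.1, 10.9 and 12.4 TPM in Klf5OE libraries 1 to 5 and 5.93 to 13.8 TPM in controls. Libraries 1 and 2 were above every control and the other 3 were inside the control range. The log2 difference was 0.48 ± 0.22 (SE) and was not called. S100a1, best known from heart and skeletal muscle where it acts on ryanodine receptors, starts beside S100a13 on the other strand. It had 9.19, 7.97, 7.16, 2.97 and 7.28 TPM in Klf5OE and 5.28 to 11.4 TPM in controls. Only library 4, the lowest, fell outside the control range, and the log2 difference of -0.10 ± 0.26 (SE) was not called. TPM of S100a13 per TPM of S100a1 ran from 1.06 to 2.07 in controls and from 1.55 to 3.66 in Klf5OE, and the ranges overlapped.

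S100a6, or calcyclin, is named for its cycle-dependent expression in fibroblasts and was close to the floor here. Controls lay between 0.234 and 1.60 TPM. Klf5OE libraries 1 and 3 listed it at 0, libraries 2 and 4 at 0.475 and 0.63 TPM, and library 5 at 3.90 TPM, above every control. The log2 difference was -0.30 ± 0.38 (SE) and was not called. It was -1.24 with a pseudocount of 0.1, and S100a6 could be tested in 6 of 11 fits with a library left out. The ratio of mean TPM was 0.934, and 0.257 without Klf5OE library 5.

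S100a10 was the largest part of the summed S100 message in every library. The 8 genes summed to 214 to 241 TPM in controls and 460 to 696 TPM in Klf5OE. S100a10 made up 35.9 to 52.5% of the sum in controls and 66.8 to 78.0% in Klf5OE. A share depends on the whole sum, so the shares of the other members are not compared. By mean TPM in Klf5OE, S100a10 was followed by S100a11, S100a16 and S100a4. S100a11 was above S100a16 in 2 of 5 Klf5OE libraries, and from S100a11 down every neighbouring pair of ranges overlapped.

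**Figure D2:**
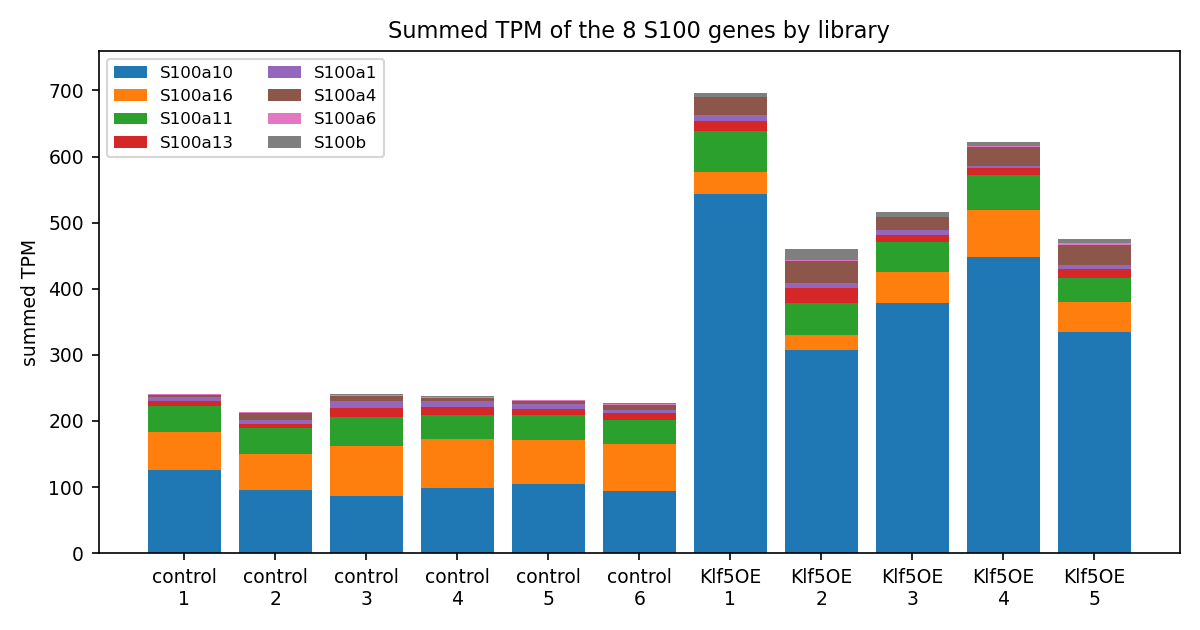
Stacked bars of the TPM of the 8 S100 genes in each of the 11 libraries, with the vertical axis from 0. The 6 controls sum to 214 to 241 TPM and the 5 Klf5OE libraries to 460 to 696 TPM, and S100a10 is the largest piece of every bar.

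Proteins that bind or receive S100 proteins were followed through 45 genes, of which 33 were tested. In limma 6 rose and 1 fell, which is 21.2% of those tested beside 3.72% of all tested genes, and the median log2 fold change was 0.1. The list was set up with earlier results known, so it is a description. The largest rise was in Anxa2, which encodes the annexin held by S100A10. It had 83.5, 62.8, 54.6, 76.9 and 42.5 TPM in Klf5OE and 1.06 to 7.21 TPM in controls. The ranges did not overlap, and the ratio of means was 14.1 (log2 fold change 3.63 ± 0.29 SE, limma adjusted p = 1.16e-06). S100a10 stood at 17.5 to 26.6 times Anxa2 in 5 controls, at 88.5 times in control library 6, and at 4.90 to 7.86 times in Klf5OE, so its message was the larger of the pair in every library.

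Htr1b, a serotonin receptor that S100A10 binds, had 9.53, 5.86, 3.39, 10.6 and 7.61 TPM in Klf5OE and 0.57 to 0.85 TPM in controls. The difference was 2.19 ± 0.24 (SE) on the log2 scale. All controls were under 1 TPM, so Htr1b entered the fit through the Klf5OE libraries only and had to differ. It is counted among the 6 that rose, and nothing is read from that call. Plat, tissue plasminogen activator, whose action on plasminogen the S100A10 and annexin A2 complex promotes, fell: controls averaged 95.3 ± 15.4 TPM (SD, n = 6) and Klf5OE libraries 56.1 ± 14.6 TPM (SD, n = 5). Its limma adjusted p was 0.0127, and 0.065 without a filter on low values, where the call was lost. Ahnak, a very large scaffold protein that binds the same complex, was too low to be tested, at 0.148 to 1.18 TPM in Klf5OE and 0 to 0.0806 TPM in controls.

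Among the other annexins, Anxa6 rose 3.31-fold, with controls at 86.7 ± 10.3 TPM (SD, n = 6) and Klf5OE at 287 ± 69.2 TPM (SD, n = 5; limma adjusted p = 4.40e-06). Anxa1, the usual partner of S100A11, was listed at 0 in all 6 controls and at 0.144 to 2.55 TPM in Klf5OE, and was not tested. Anxa11, a partner of S100A6, averaged 1.68 TPM in Klf5OE and 0.559 TPM in controls, with a limma adjusted p of 0.129. All controls were under 1 TPM, so Anxa11 too entered the fit through the Klf5OE libraries only, and nothing is read from its test. Cacybp, the calcyclin-binding protein, had 115 ± 15.2 TPM (SD, n = 5) and 113 ± 11.0 TPM (SD, n = 6).

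Fgf1, the growth factor released with S100A13, rose 2.20-fold, with controls at 6.97 ± 1.02 TPM (SD, n = 6) and Klf5OE at 15.4 ± 3.24 TPM (SD, n = 5). Every Klf5OE library was above every control, and the limma adjusted p was 0.0013. Myh9, the non-muscle myosin IIA heavy chain bound by S100A4, rose 1.60-fold, with controls at 58.4 ± 13.6 TPM (SD, n = 6) and Klf5OE at 93.5 ± 14.5 TPM (SD, n = 5). The adjusted p in limma was 0.0188, and leaving out single libraries moved it between 0.00488 and 0.0567. The call was lost without Klf5OE library 1 (0.0525), without Klf5OE library 4 (0.0567) and without a filter on low values (0.0769). Mapt, the tau gene, whose protein S100B can bind, was the sixth gene to rise (limma adjusted p = 0.0474) and was named after its values were seen. It averaged 21.5 TPM in controls and 32.0 TPM in Klf5OE. The call held in 2 of 11 fits with a library left out. It was also lost with a pseudocount of 0.1, without a filter and without a variance trend. Ager, which encodes the receptor RAGE, was not tested, at 0.619 to 1.98 TPM in controls and 0.143 to 1.42 TPM in Klf5OE. The other 26 tested genes of the list were not called, at log2 fold changes of -0.72 to 0.77. Among them were Trp53, the tumour suppressor p53, and Mdm2, its ubiquitin ligase, both known to bind S100 proteins. Trp53 averaged 82.7 ± 9.10 TPM (SD, n = 6) in controls and 108 ± 18.5 TPM (SD, n = 5) in Klf5OE and did not pass in limma (adjusted p = 0.162). Mdm2 averaged 34.3 ± 7.57 TPM (SD, n = 6) and 46.3 ± 4.82 TPM (SD, n = 5) and did not pass either (limma adjusted p = 0.147). Both were called higher with trimmed-mean scaling, with quantile normalization and without ribosomal RNA-like and mitochondrial rows, where the lowest adjusted p was 0.00192 for Trp53 and 0.0299 for Mdm2.

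**Figure D3:**
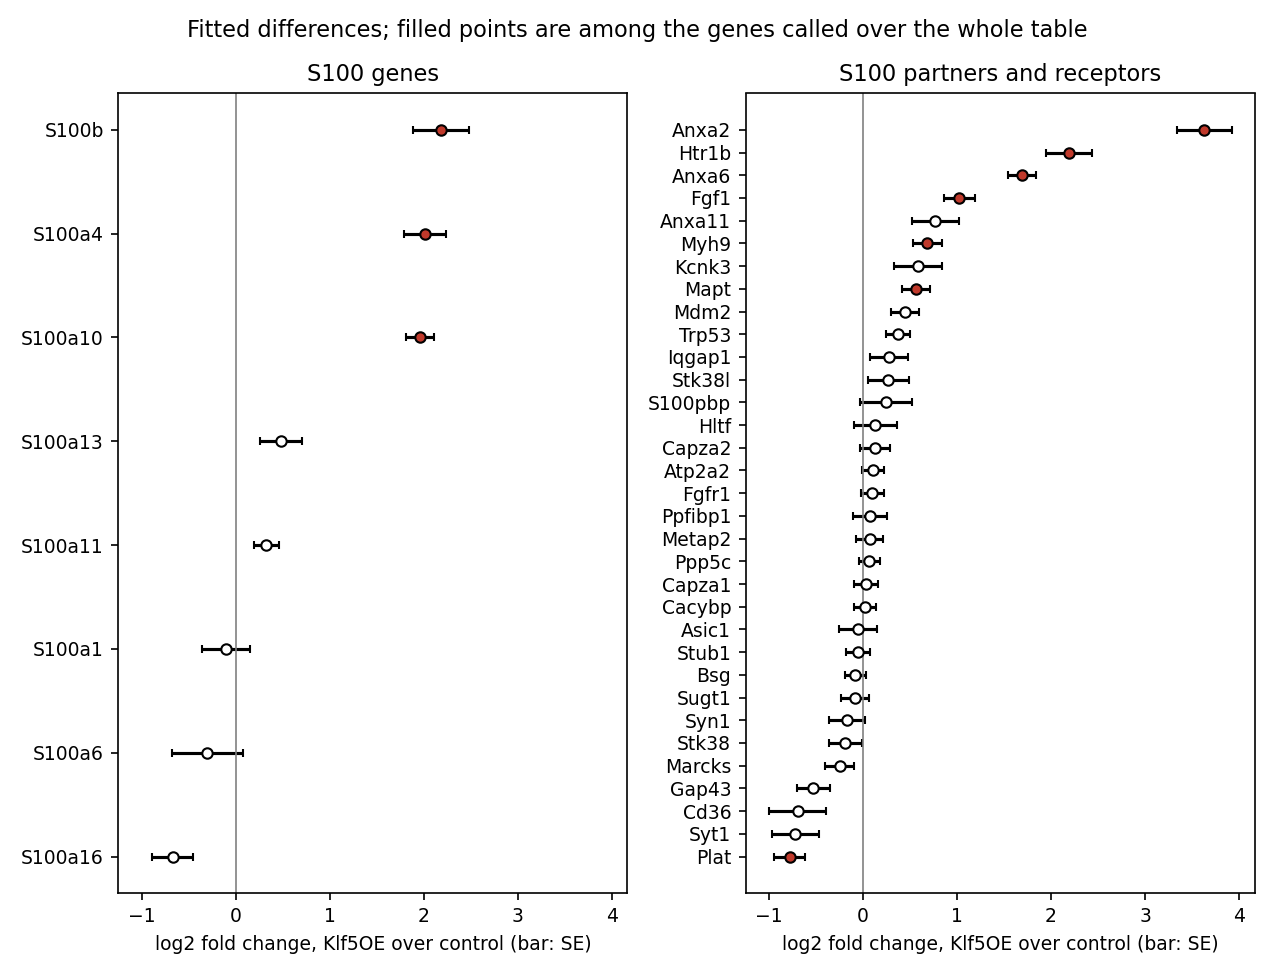
Fitted log2 fold changes of Klf5OE over control, with SE bars, for the 8 S100 genes (left) and 33 tested partners and receptors (right). Filled points are among the genes called over the whole table; Anxa2 lies furthest to the right at 3.63 and Plat furthest to the left at -0.78.

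Other EF-hand proteins were followed through 43 genes. Of 27 tested genes 1 rose in limma, 3.70% beside 3.72% of all tested genes, and the median log2 fold change was -0.04. The 26 that were not called lay between -0.62 (Necab2, a neuronal calcium-binding protein) and 0.99 (Cabp1, a relative of calmodulin) on the log2 scale, with limma adjusted p of 0.0672 or more. The lowest p was that of Efhd1, a mitochondrial EF-hand protein, at 1.47 to 4.33 TPM in controls and 4.52 to 10.6 TPM in Klf5OE, without overlap. It was called with trimmed-mean scaling and without ribosomal RNA-like and mitochondrial rows. Calb2, or calretinin, was too low to be tested. It had 1.72, 6.34, 0.737, 3.86 and 3.42 TPM in Klf5OE and 0.0789 to 0.460 TPM in controls, so every Klf5OE library was above every control. Cabp1 had a limma adjusted p of 0.00588 without Klf5OE library 2, and Necab2 had 0.0444 without Klf5OE library 1 and 0.0343 after quantile normalization. Calm2, a calmodulin gene, had 615 ± 98.3 TPM (SD, n = 5) and 538 ± 46.0 TPM (SD, n = 6) and was not called (limma adjusted p = 0.656). Its adjusted p fell to 0.0463 with trimmed-mean scaling and 0.0459 with quantile normalization, and over all other fits it lay between 0.0924 and 0.787. Calm3, another calmodulin gene, had 307 ± 43.6 TPM (SD, n = 5) and 329 ± 41.0 TPM (SD, n = 6).

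The genes beside the S100 genes on chromosome 3 were examined next. The 3 nearest tested genes on each side of each member gave 11 neighbours. In limma 1 of these was called, 9.09% beside 3.72% of all tested genes, and it was Gm42674, the model that overlaps S100a4. The other 10 lay between -0.30 (Snapin, a SNARE-associated protein) and 0.33 (Tchh, trichohyalin, which has an S100-type EF-hand domain) on the log2 scale, with adjusted p of 0.491 to 0.998. Chtop and Ilf2, which flank the S100a1 end of the group, had 156 against 192 TPM and 108 against 109 TPM. Tchh and Them4, on the 2 sides of the S100a11 and S100a10 pair, had 1.89 against 1.33 TPM and 5.93 against 7.02 TPM.

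**Figure D4:**
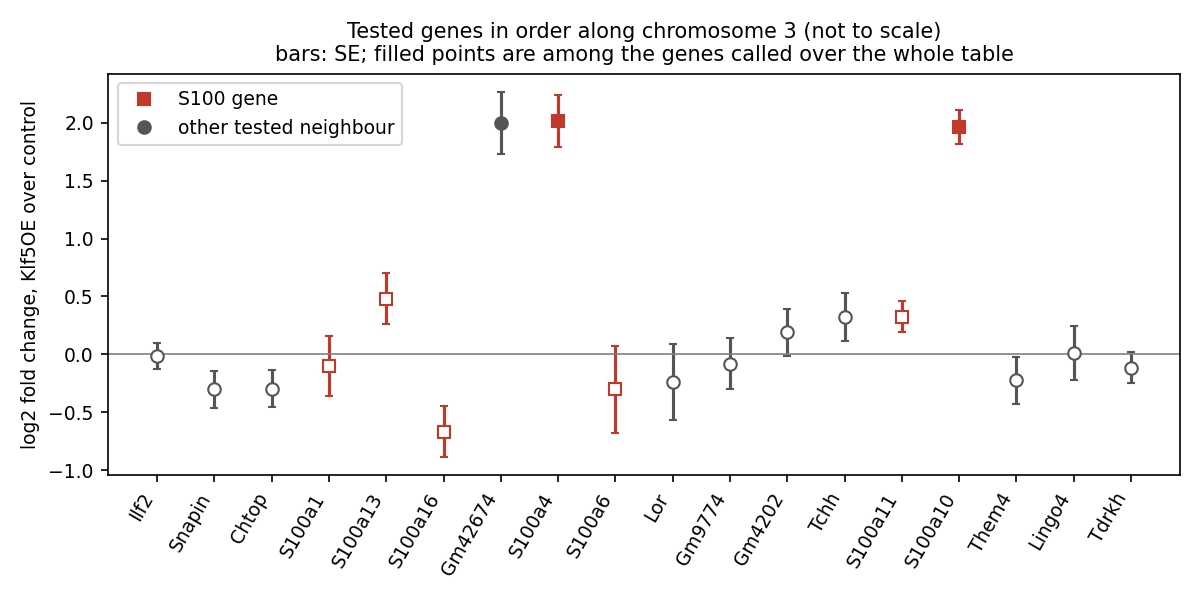
Fitted log2 fold changes of Klf5OE over control, with SE bars, for tested genes in their order along chromosome 3, not to scale. Red squares are S100 genes and grey circles the 11 neighbours; the filled points are S100a4, the overlapping Gm42674, and S100a10.

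The genes whose pattern was most like that of S100b were found by the root mean square difference between standardized log2 values over the 11 libraries. The 5 closest were Tnfrsf23, a decoy receptor of the TNF family, at 0.208, Prx (periaxin, of myelinating Schwann cells) at 0.229, Crim1, a transmembrane regulator of BMP, at 0.238, Fgf1 at 0.243 and the kallikrein Klk10 at 0.263. Like S100b, each was highest in Klf5OE library 2. They were chosen for likeness to S100b over these same libraries, so nothing is read from this shared peak. Klk10 had 38.6 TPM in that library and 10.8 to 19.4 TPM in the other Klf5OE libraries, and Crim1 43.0 TPM and 20.3 to 31.9 TPM. Tnfrsf23 was at most 0.136 TPM in controls, and 1 of 6 controls reached 1 TPM for Klk10. Both therefore entered the fit through the Klf5OE libraries and had to differ.

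Markers of other cells known for S100 genes were low, and their sums overlapped between groups. Over all tested genes 3.72% were called, 2.29% higher and 1.43% lower. Few genes of each list were tested, so nothing is read from a count of 0 here or in the lists that follow. The 10 mural and mesenchymal genes summed to 2.68 to 14.3 TPM in controls and 3.12 to 7.02 TPM in Klf5OE. Lum and Dcn were listed at 0 in all libraries, and 1 of 3 tested genes, Myl9, was called lower. Myl9 had 0.978 to 6.14 TPM in controls and 0 to 0.936 TPM in Klf5OE. It therefore entered the fit through the controls only and had to differ, and nothing is read from that call. The 8 microglia and macrophage genes summed to 0.283 to 2.86 and 0.406 to 2.17 TPM, with Aif1, Cx3cr1, C1qa, C1qb and Tyrobp at 0 throughout. The 10 epithelial and keratinocyte genes summed to 6.32 to 12.5 and 5.43 to 13.4 TPM, with Krt5, Krt14 and Ivl at 0 and 0 of 2 tested genes called. The 6 endothelial genes summed to 0.677 to 2.77 and 0.711 to 2.31 TPM, with 0 of 1 tested called.

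For S100b the glial lists are the closest. The 7 astrocyte genes without S100b summed to 323 to 412 TPM in controls and 186 to 326 TPM in Klf5OE. Of 6 tested genes Aldh1l1 and Slc1a3 were called lower and none higher, beside 1.43% of all tested genes called lower. Slc1a3 and Aldoc made up most of the sum. Aqp4, the astrocyte water channel, had 0.363 to 1.77 TPM in controls and 1.17 to 4.47 TPM in Klf5OE and was not called. Gfap, the astrocyte filament gene, was not tested, at 0 to 0.0820 TPM in controls and 0 to 0.571 TPM in Klf5OE. The 8 oligodendrocyte lineage genes summed to 1645 to 2844 and 1693 to 2065 TPM, mostly from Olig1 and Olig2. Of 6 tested genes only Cspg4 was called, higher, at 35.0 to 55.0 and 92.4 to 149 TPM. Olig1, at 1021 to 1923 and 947 to 1147 TPM, and the other tested genes of the list were not called. The 6 neuron genes summed to 224 to 334 and 195 to 306 TPM with 0 of 6 called, and the 6 choroid plexus and ependymal genes to 7.74 to 12.4 and 4.11 to 9.16 TPM with 0 of 2 called and Ttr at 0. The part of these cell types in the S100b difference was not tested.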

How the data were processed

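RNA was sequenced from 6 control and 5 Klf5OE neurosphere libraries, and the authors deposited 1 table of TPM, scaled by them to transcript length and library total. HISAT2, StringTie, HTSeq, DESeq2 and the build GRCm38.p5 are named in the submitters' processing notes, without versions or roles. No annotation release or strand setting is stated there. Of 53453 rows, 53255 were matched to symbols. The 8 genes and all lists were chosen with earlier results of these data known.

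The 13549 genes that reached 1 TPM in 5 or more libraries were tested on log2(TPM + 1), a pseudocount of 1, with limma 3.58.1 (R 4.3.3) with a variance trend, two-sided, with Benjamini-Hochberg adjustment over all of them at 0.05. Fold changes on this scale understate those of low genes. Named genes were Klf5, all S100 rows, up to 6 called genes of each list, fixed partners and calcium sensors, tested genes overlapping a member, and the 5 closest to S100b. The values of 1 gene under this rule are not reported here. Nothing says how cultures were handled, so p-values measure the spread between libraries. Alternatives were a pseudocount of 0.1, no filter or 5 TPM, 3 other scalings, 2 variance models, a replicate block and leaving out each library. Summaries used Python 3.11.15.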

Additional observations from a re-analysis of the deposited data

Results flagged for a closer look

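The 25 tested genes under the naming rule above were screened in each of the 2 groups. The gap between an extreme library and its nearest neighbour was set against the group's range on the log2(TPM + 1) scale. Other genes mentioned in the text were not screened. Of 50 such groups 1 was past Dixon's 95% limit, and chance alone flags about 1 in 20. S100a1 was lowest in Klf5OE library 4, at 2.97 TPM, with the next library at 7.16 TPM and the highest at 9.19 TPM.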

How the results depend on the processing

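The S100 genes were chosen on this comparison, so the number of them called is a description. It was 3, and 3 to 4 with each library left out, 4 without Klf5OE library 4 (S100a16 joined), and 4 without ribosomal RNA-like and mitochondrial rows (S100a11 joined). Genes called over the whole table numbered 504, and 353 to 492 with each library left out, 349 without a filter, 724 with trimmed-mean scaling, 732 after quantile normalization and 667 when ribosomal RNA-like and mitochondrial rows were removed. Partners called were 7, 4 without a filter, 9 under each of these 3 scalings and 4 to 7 with each library left out, with 4 without Klf5OE library 1 and 4 without Klf5OE library 4. Other EF-hand genes called were 1, with 2 without a filter, 3 after quantile normalization, 3 after trimmed-mean scaling, 3 when ribosomal RNA-like and mitochondrial rows were removed, and 1 to 2 with each library left out (2 without Klf5OE library 1 and 2 without Klf5OE library 2). Chromosome 3 neighbours called were 1 in each of these fits. The cause of these shifts was not tested.

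Uncalled differences near 0 changed sign. With each library left out, S100a1 (-0.10) ranged from -0.209 to 0.131, above 0 without control library 3 or Klf5OE library 4. Cacybp (0.02) ranged from -0.035 to 0.079, below 0 without control library 5, Klf5OE library 1 or Klf5OE library 4. Dip2a (-0.04) ranged from -0.113 to 0.075, above 0 without control library 6, Klf5OE library 2 or Klf5OE library 5, and was 0.002 with trimmed-mean scaling and 0.014 with the ribosomal RNA-like and mitochondrial rows removed. The same 10 libraries with the replicate number as a block gave Dip2a 0.002 and 426 called genes, against 406 without the block term. Deviations of same-numbered libraries correlated at -0.04 to 0.304, over 0.1 in 1 of 5 pairs. Of the 5 Klf5OE libraries, 1 correlated best with its own number. These values showed no clear pairing by number, but 5 pairs cannot exclude one. Depth is unknown, so values near 1 TPM, as for S100a6 and S100b in controls, have no counting interval.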
